A study of Capra hircus with 6 samples.

Results

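This account covers the genes of the Fanconi anemia and homologous recombination pathways in cultured secondary hair follicle dermal papilla cells (SHF-DPCs) of the cashmere goat, compared with and without all-trans retinoic acid (ATRA). A gene was a member if the pathway annotation in the count table gave it the Fanconi anemia pathway or homologous recombination, and did not also give it DNA replication. The rule used annotation alone and no measured value, and it found 71 of the 15944 genes listed. Of these members, 39 carried the Fanconi anemia pathway only, 21 carried homologous recombination only, and 11 carried both. The 71 members stood for 68 distinct genes, because BRCC3, FANCB and RMI2 each had a second gene model under a LOC number.

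SHF-DPCs are specialised fibroblast-like cells from the base of the follicle that grows cashmere. Both groups were wild-type primary skin cultures from Albas cashmere goats 3 years old, grown in 10% fetal bovine serum and used at passages 4 to 7. The Control group (3 libraries) received no ATRA, and the ATRA group (3 libraries) received ATRA at 0.1 mM for 24 h, so a single dose and time were sampled. The study took its cells from 3 animals, but the labels do not say which library came from which animal, so p-values measure the spread between these libraries.

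The Fanconi anemia pathway repairs crosslinks between the strands of DNA. FANCM and its partners recognise a blocked replication fork, the core complex attaches ubiquitin to FANCD2 and FANCI, and nucleases and translesion polymerases then cut out and bypass the lesion. Homologous recombination repairs the resulting break by copying an intact sister strand: the MRN complex trims the ends, BRCA1 and BRCA2 prepare them for pairing with the intact strand, and the BLM complex separates the joined molecules. Much of this machinery is known to work during and after DNA replication in dividing cells.

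The libraries held 35532339 to 38012771 counts each. Values below are normalized CPM, the share of each library's counts that a gene took (as CPM) after scaling by TMM, a method of edgeR that assumes most genes do not differ. The log2 fold change (log2FC) is ATRA against Control, so a negative value is lower with ATRA. Because transcript lengths were not used here, levels are compared between libraries and not between genes. TMM factors ran from 0.842 to 0.851 in Control and from 1.16 to 1.20 in ATRA, a gap between the groups that makes the direction of a small change depend on the scaling. Scaling by library size alone raised the median log2FC of all 12588 tested genes by 0.48, and each small change is read against that shift.

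Cell markers were examined first. Of 12 dermal papilla and mesenchyme markers, 8 were tested and 8 were lower with ATRA by TMM scaling. Among them were ACTA2 (-9.62), COL1A1 (-5.62) and VIM (-3.59) on the log2 scale. The smallest differences, LEF1 (-0.54) and PDGFRB (-0.44), are near the 0.48 shift by library size alone, so their direction may depend on the scaling. PROM1, ALPL, CORIN and CRABP1 were at or near 0 in both groups. The summed level of the 12 went from 55522 to 58396 normalized CPM in Control to 2450 to 2549 in ATRA. The summed markers of each other cell type were higher with ATRA, though single genes carried most of these sums: 9.15 to 12.8 against 41.2 to 44.0 for leukocytes (CD14, CD68 and CD3E), 16.1 to 17.6 against 32.2 to 39.0 for melanocytes (MITF, PMEL and TYRP1), 0.903 to 1.24 against 6.19 to 9.16 for endothelial cells (5 genes), and 3.11 to 4.95 against 5.26 to 5.95 for keratinocytes (5 genes). PECAM1 made up most of the endothelial sum in ATRA, with 0, 0 and 0 counts in Control and 242, 340 and 206 in ATRA. TEK was also higher (0.87), while CDH5 and VWF were near 0 or did not pass. KDR went the other way, from 5, 6 and 10 counts in Control to 2, 1 and 0 in ATRA, too few to be tested. KRT10 (0.82) carried the keratinocyte sum, while KRT14 had 20, 14 and 10 counts in Control and 3, 0 and 0 in ATRA, and KRT5 went from 2, 7 and 3 counts to 0, 0 and 0. MITF (1.33) carried the melanocyte sum and PMEL was lower (-0.90), while CD14 (2.18) and CD68 (1.41) were both higher. TYRP1 and TP63 were at or near 0 in every library, and PTPRC, LYZ, TYR, DCT and MLANA were not listed. In bulk RNA, fewer cells of a type and less RNA per cell cannot be told apart. The part of these markers in the results below was not tested.

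The question put to the members was which of them differed between ATRA and Control. Of 71 members, 68 had enough reads to be tested. With ATRA, 33 were lower and 17 were higher at an adjusted p under 0.05 (edgeR quasi-likelihood test), and 18 did not pass. Over all tested genes, 38.7% were lower and 40.9% were higher by the same rule, against 48.5% and 25% of the members. With the thresholds of the study's methods (log2FC beyond 1 in size and p under 0.05), 18 members were lower and 3 were higher. That is 26.5% and 4.41% of the tested members, beside 17.3% and 13.7% of all tested genes.

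The split between lower and higher depended on the scaling. By library size alone, 20 members were lower and 37 were higher, in place of 33 and 17. Under all 4 scalings tried (TMM, RLE, upper quartile and library size alone), 20 members were lower and 17 were higher, which is 29.4% and 25% of the tested members, beside 22.7% and 40.0% of all tested genes. Against TMM, RLE shifted the median log2FC of all tested genes by -0.02, upper quartile by 0.08 and library size alone by 0.48. No scaling tried moved genes down by more than that small step. The comparison could therefore remove calls of lower members but hardly any call of a higher one. HES1, RAD50 and REV1 were called in opposite directions by TMM and by library size alone. The 20 members lower throughout included BARD1, BLM, BRCA1, BRCA2, BRCC3 and its second model, BRE, BRIP1, CENPS, FANCA, FANCD2, FANCI, FANCL, MRE11, RAD51C, RAD54L, RMI2, UBE2T and XRCC2. The 17 higher throughout were ATRIP, EME2, FAAP24, FAM175A, FAN1, FANCC, FANCF, FANCM, MUS81, POLI, POLK, RAD52, SLX1A, TOP3B, UIMC1, WDR48 and XRCC3. "Fell" and "rose" below are used for these members.

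The median log2FC of the tested members was -0.18, against 0.04 for all tested genes, a difference of -0.22. Scaling shifts all genes by nearly the same step, so this difference could hardly change between the 4 scalings. The lower tail was longer than the upper one. Of the members, 6 lay below a log2FC of -3 (8.82%), against 4.60% of all tested genes, while the highest member reached 1.17. The members' summed level was 1578 to 1593 normalized CPM in Control and 1367 to 1404 in ATRA. As a share of all counts it was 0.133% to 0.136% in Control and 0.162% to 0.164% in ATRA, so the direction of the sum turns with the scaling. In 34 members every ATRA library lay below every Control library, in 18 every one lay above, and in 16 the groups overlapped. Among all tested genes the shares apart were 39.0% and 41.2%.

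**Figure D1:**
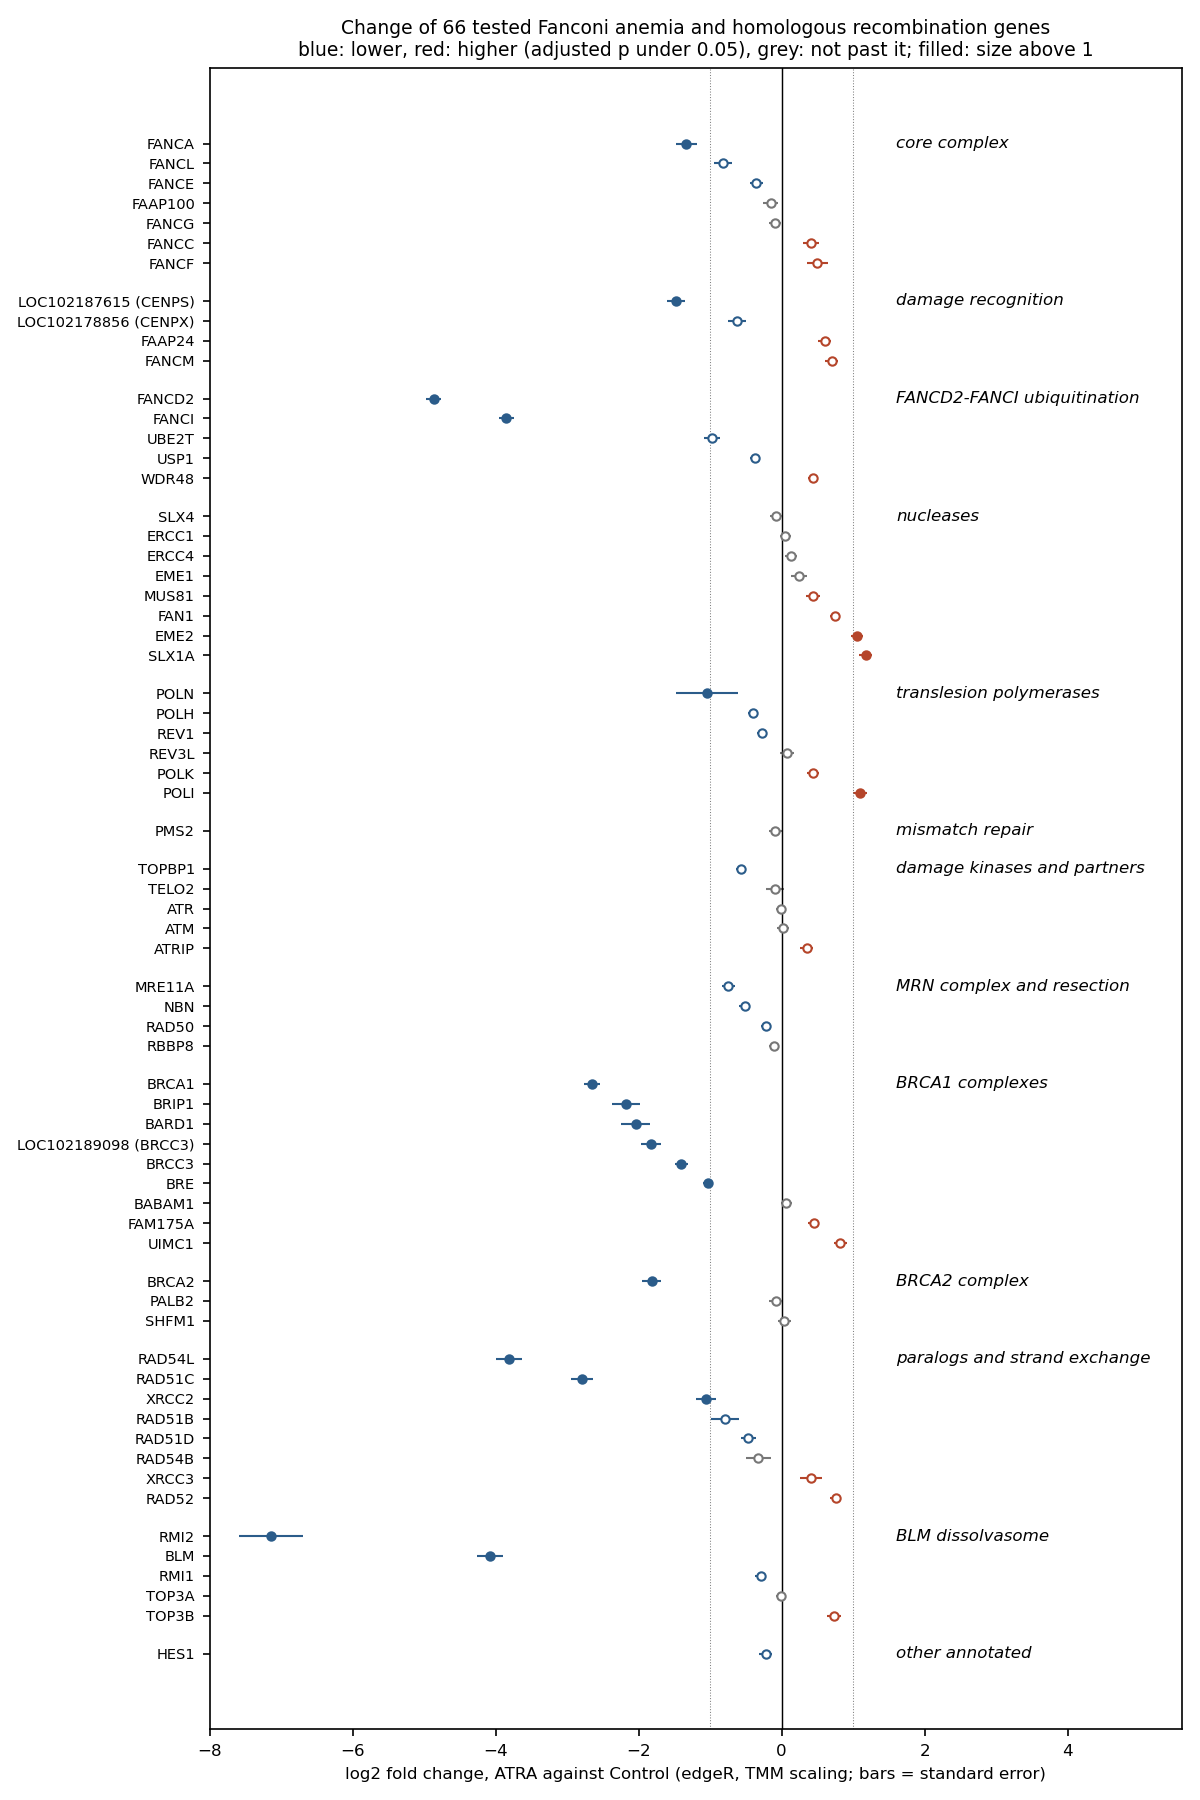
Log2 fold change of 66 tested members (x axis, ATRA against Control, TMM scaling, bars are the standard error), grouped by role. The FANCD2-FANCI, BRCA1, BLM and strand exchange groups hold the points left of -2, down to RMI2 at -7.15, and the nuclease group reaches furthest right, up to SLX1A at 1.17.

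**Figure D2:**
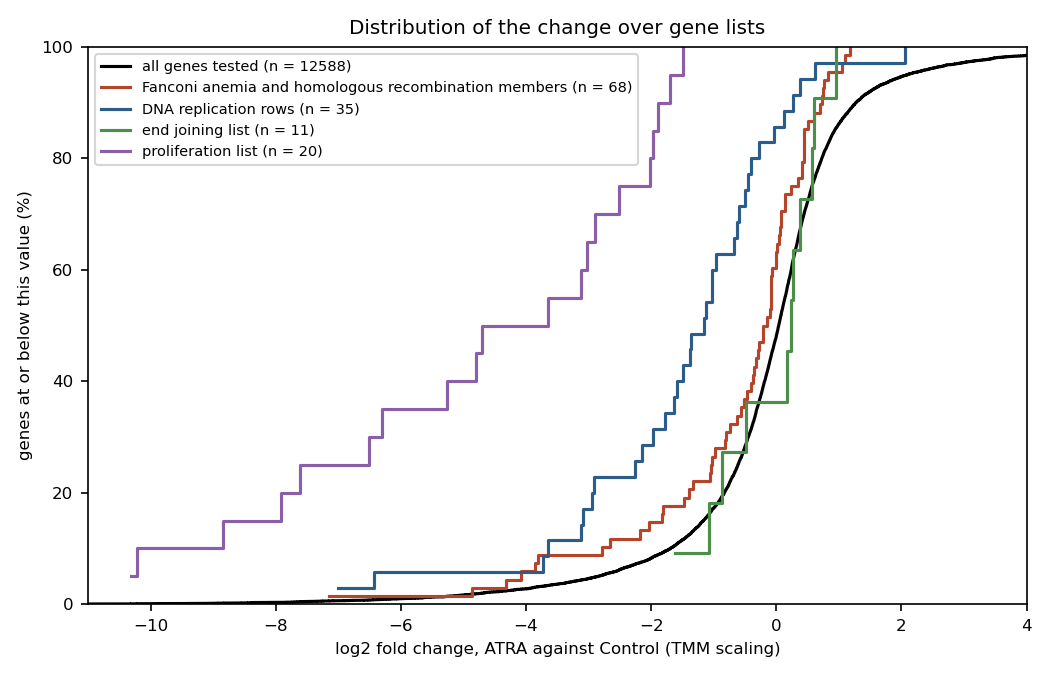
Share of genes at or below each log2 fold change (x axis, TMM scaling) for all 12588 tested genes, the 68 tested members, 35 DNA replication genes, 11 end joining genes and 20 proliferation genes. Over most of its range the members' curve lies to the left of the curve of all genes and to the right of the replication and proliferation curves, and it ends at 1.17.

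Some of the largest falls were at the centre of the Fanconi anemia pathway, in the pair of proteins that receives ubiquitin. FANCD2 stood at 48.4, 45.1 and 47.2 normalized CPM in the Control libraries and at 1.62, 1.84 and 1.35 in the ATRA libraries. Every ATRA value was far below every Control value, a 29.1-fold fall (log2FC -4.86 ± 0.11 SE, adjusted p = 7.16e-18). FANCI, its partner on DNA, stood at 33.2, 32.3 and 32.6 in Control and at 1.99, 2.63 and 2.17 in ATRA. The groups were again well apart, with a 14.4-fold fall (log2FC -3.85 ± 0.11 SE, adjusted p = 2.47e-16). FANCD2 shares its locus with EMC3 and FANCI with POLG in the RefSeq annotation (assembly ARS1.2), and whether the counting used strand is not given in the sources used here. The overlapping genes did not fall: their log2FC was 1.17 for EMC3 and 0.36 for POLG.

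The enzymes that add and remove this ubiquitin moved less. UBE2T, the ubiquitin-conjugating enzyme of the pathway, stood at 16.0, 13.9 and 14 in Control and at 7.96, 6.30 and 8.10 in ATRA, with no overlap, and fell 1.97-fold (log2FC -0.98 ± 0.11 SE, adjusted p = 3.10e-07). USP1, the deubiquitinase, stood at 66.8, 74.0 and 70.9 in Control and at 50.5, 57.2 and 55.2 in ATRA. The USP1 groups did not overlap either (log2FC -0.38 ± 0.068 SE, adjusted p = 5.48e-05), although its log2FC was 0.10 by library size alone. WDR48, the cofactor that activates USP1, rose by a log2FC of 0.44. So in this group of 5 members, 4 were lower (80%) and 1 was higher (20%) with TMM scaling, beside 38.7% and 40.9% of all tested genes. The change ran from -4.86 for FANCD2 to 0.44 for WDR48.

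The core complex, the multi-subunit ligase that acts on FANCD2 and FANCI, had 9 members, of which 7 were tested. With TMM scaling, 3 were lower (42.9%), 2 were higher (28.6%) and 2 did not pass, beside 38.7% and 40.9% of all tested genes. The share lower is near that of all genes and is no result about the complex. FANCA, which helps to assemble the complex, stood at 9.21, 6.74 and 8.34 in Control and at 3.22, 3.02 and 3.41 in ATRA. All ATRA libraries were lower, by 2.52-fold (log2FC -1.33 ± 0.14 SE, adjusted p = 1.08e-07). FANCA overlaps ZNF276, whose log2FC was 0.77. FANCL, the catalytic subunit, fell by a log2FC of -0.82, while FANCC (0.42) and FANCF (0.50) rose. With R's t.test in place of edgeR, FANCC (adjusted p = 0.0572) and FANCF (adjusted p = 0.0574) did not pass. FANCE had a log2FC of -0.35 with TMM and 0.13 by library size alone. FAAP100 (-0.15) and FANCG (-0.09) did not pass, and their groups overlapped.

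FANCB, a subunit of the same complex, and its second gene model had too few reads to be tested. FANCB had 11, 6 and 11 counts in the Control libraries and 1, 4 and 6 in the ATRA libraries. The second model, LOC102189936, had 15, 9 and 21 counts in Control and 3, 2 and 2 in ATRA. In both, the ATRA libraries were below the Control libraries in normalized CPM, and reads shared between the 2 models could have gone to either.

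Damage recognition split evenly, with 2 of 4 members lower and 2 higher with TMM (50% each). These shares rest on 4 genes, beside 38.7% lower and 40.9% higher of all tested genes, and are no result about the group. FANCM, the DNA translocase that brings the core complex to a blocked fork, stood at 10.4, 11.3 and 12.1 in Control and at 17.1, 19.0 and 18.9 in ATRA. Every ATRA library was higher, by 1.63-fold (log2FC 0.70 ± 0.094 SE, adjusted p = 1.78e-06). FAAP24, its DNA-binding partner, rose by a similar log2FC of 0.60. The histone-fold partners of FANCM went the other way. CENPS, listed as LOC102187615, fell 2.78-fold (log2FC -1.48, adjusted p = 7.37e-09), and CENPX, listed as LOC102178856, had a log2FC of -0.63 with TMM that kept its sign by library size alone without passing the test.

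Among the nucleases that cut around the crosslink, none of 8 was lower and 4 were higher with an adjusted p under 0.05 (edgeR). The share higher, 50%, is near the 40.9% of all tested genes and is no result about the nucleases as a group. The share lower was 0%, beside 38.7% of all tested genes. It rests on 8 genes, and the difference was not tested. The count of lower nucleases was 0 by an unadjusted p under 0.05 and in DESeq2 as well, but these use the same counts and are no separate evidence. SLX1A, a structure-specific nuclease, stood at 10.4, 9.34 and 9.43 in Control and at 23.0, 20.7 and 22.0 in ATRA, a 2.26-fold rise with the groups apart (log2FC 1.17 ± 0.091 SE, adjusted p = 1.01e-09). SLX4, the scaffold to which SLX1A binds, stood at 36.8, 29.9 and 35.2 in Control and at 33.0, 32.9 and 30.6 in ATRA. Its groups overlapped and no difference was called (log2FC -0.08 ± 0.082 SE, adjusted p = 0.400).

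EME2, a partner of the nuclease MUS81, stood at 11.9, 12.5 and 11.2 in Control and at 24.6, 24.4 and 24.9 in ATRA, again with every ATRA library above Control (log2FC 1.05 ± 0.084 SE, adjusted p = 1.48e-09). EME2 overlaps MRPS34 and SPSB3, whose log2FC were 0.24 and 0.97. FAN1, a nuclease that binds ubiquitinated FANCD2, stood at 38.5, 39.3 and 38.1 in Control and at 62.6, 65.3 and 66.4 in ATRA. It rose 1.68-fold with little spread in either group (log2FC 0.75 ± 0.064 SE, adjusted p = 4.10e-09). MUS81 rose by a log2FC of 0.44, and its other partner EME1 (0.24, adjusted p = 0.0515 in edgeR) did not pass, though every ATRA library of EME1 was above Control. ERCC1 (0.05) and ERCC4 (0.14), which form the incision nuclease that unhooks a crosslink, did not pass.

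The translesion polymerases copy past a lesion at the cost of accuracy. Of 6 members, 3 were lower (50%), 2 were higher (33.3%) and 1 did not pass with TMM. Beside 38.7% and 40.9% of all tested genes, these shares of 6 genes are no result about the group. POLI stood at 9.12, 7.88 and 8.13 in Control and at 18.5, 18.3 and 17.1 in ATRA, a 2.15-fold rise with no overlap (log2FC 1.10 ± 0.096 SE, adjusted p = 5.94e-09). POLK rose by a log2FC of 0.44. POLH (-0.40) and REV1 (-0.28) were lower with TMM, but their log2FC were 0.08 and 0.20 by library size alone, and REV3L (0.08) did not pass. POLN had 11, 12 and 14 counts in Control and 8, 6 and 10 in ATRA, and its call (log2FC -1.04, adjusted p = 0.0368) was lost by leaving out any one of 5 libraries, with adjusted p up to 0.131 without ATRA 2.

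**Figure D3:**
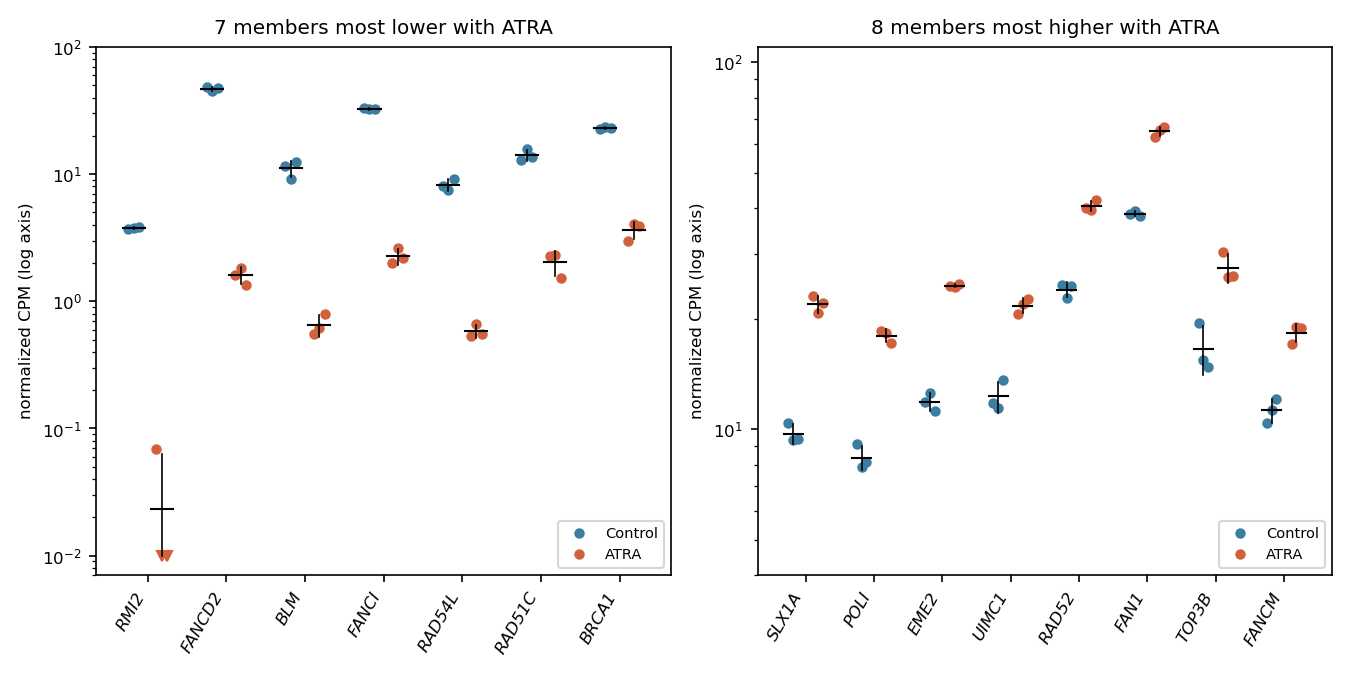
Normalized CPM (log axes) in each of the 3 Control and 3 ATRA libraries for 7 of the members with the largest falls (left) and the 8 with the largest rises (right). Horizontal marks are group means and vertical bars the SD (cut where it runs below the axis), and triangles mark the 2 RMI2 libraries with 0 counts. The groups do not overlap for any gene drawn, and the falls span more of the axis than the rises.

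Homologous recombination begins with cutting back the ends of the break. MRE11 (listed as MRE11A), the nuclease of the MRN complex, stood at 33.4, 33.9 and 34.6 in Control and at 19.8, 23.1 and 17.9 in ATRA. It fell 1.68-fold, with the groups apart (log2FC -0.75 ± 0.088 SE, adjusted p = 3.63e-07). NBN, which brings the complex to damage kinases, stood at 30.0, 32.2 and 31.1 in Control and at 23.1, 20.9 and 21.4 in ATRA, lower in every ATRA library (log2FC -0.51 ± 0.076 SE, adjusted p = 6.53e-06). By library size alone NBN kept its sign but did not pass.

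RAD50, the long coiled ATPase of the complex, stood at 50.7, 52.7 and 50.4 in Control and at 44.2, 45.4 and 42.3 in ATRA. Its groups did not overlap with TMM (log2FC -0.22 ± 0.065 SE, adjusted p = 0.00483), but by library size alone its log2FC was 0.26, so its direction depends on the scaling. RBBP8, the cofactor also called CtIP that starts resection, stood at 33.3, 33.9 and 36.3 in Control and at 32.0, 33.6 and 30.6 in ATRA. These groups overlapped and no difference was called (log2FC -0.11 ± 0.073 SE, adjusted p = 0.185).

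The damage kinases showed no called difference. ATM, the kinase that answers to breaks, stood at 33.0, 33.2 and 32.9 in Control and at 30.4, 37.6 and 32.3 in ATRA (log2FC 0.02 ± 0.081 SE, adjusted p = 0.854). ATR, the kinase of blocked forks, stood at 25.7, 27.0 and 27.1 in Control and at 26.1, 27.5 and 25.8 in ATRA (log2FC -0.01 ± 0.074 SE, adjusted p = 0.924). The ATRA values of ATM lay on both sides of the narrow Control range, and those of ATR overlapped with Control. By library size alone, both were called higher (log2FC 0.50 for ATM and 0.47 for ATR). Of their partners, ATRIP rose (0.35), TOPBP1 was lower with TMM (-0.56), and TELO2 (-0.09) did not pass.

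The BRCA1 complexes held more members past the study thresholds than any other role group: 6 of 9 were lower by them (66.7%, beside 17.3% of all tested genes). BRCC3 and its second model are both among the 6, so this share counts that gene more than once. BRCA1, a ubiquitin ligase that directs breaks towards recombination, stood at 22.5, 23.4 and 23.2 in Control and at 3.01, 4.04 and 3.91 in ATRA. It fell 6.30-fold, with all ATRA libraries below Control (log2FC -2.65 ± 0.11 SE, adjusted p = 1.21e-13). BARD1, the obligate partner of BRCA1, stood at 4.25, 4.20 and 3.83 in Control and at 0.833, 1.22 and 0.918 in ATRA, and fell 4.11-fold (log2FC -2.04 ± 0.20 SE, adjusted p = 3.08e-08). BRIP1, the helicase bound by BRCA1, stood at 5.48, 6.24 and 6.38 in Control and at 0.925, 1.63 and 1.45 in ATRA, and fell 4.51-fold (log2FC -2.17 ± 0.19 SE, adjusted p = 7.02e-09). In each of the 3 genes the highest ATRA library was below the lowest Control library.

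The remaining members of this group belong to the BRCA1-A complex, which binds ubiquitin chains at breaks, and they split. BRCC3, its deubiquitinase, fell by a log2FC of -1.40, its second model LOC102189098 by -1.82, and the scaffold BRE by -1.02. Reads of the 2 BRCC3 models may have been shared between them. UIMC1, the ubiquitin-binding subunit also called RAP80, stood at 11.8, 11.4 and 13.6 in Control and at 20.6, 22.0 and 22.6 in ATRA, and rose 1.77-fold with no overlap (log2FC 0.82 ± 0.092 SE, adjusted p = 1.77e-07). FAM175A, the central scaffold also called Abraxas, rose by 0.45, and BABAM1 (0.07) did not pass.

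BRCA2 and its direct partners also differed from one another. BRCA2, which acts on single-stranded DNA during repair, stood at 12.4, 15.8 and 16.2 in Control and at 4.40, 4.65 and 3.55 in ATRA. It fell 3.52-fold, and no ATRA library reached the Control range (log2FC -1.82 ± 0.13 SE, adjusted p = 4.05e-10). PALB2, the bridge between BRCA1 and BRCA2, stood at 13.5, 12.1 and 12.1 in Control and at 11.9, 12 and 11.8 in ATRA. The ATRA values of PALB2 lay just below Control, and the difference did not pass (log2FC -0.08 ± 0.094 SE, adjusted p = 0.446). SHFM1, the small acidic protein also called DSS1 that binds BRCA2, had a log2FC of 0.04 and overlapping groups.

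RAD54L, a DNA motor protein of strand exchange, stood at 8.05, 7.48 and 9.18 in Control and at 0.532, 0.657 and 0.556 in ATRA. RAD54L fell 14.1-fold with no overlap (log2FC -3.81 ± 0.18 SE, adjusted p = 7.54e-13), and LRRC41, which overlaps it, had a log2FC of 0.63.

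The paralogs RAD51B, RAD51C, RAD51D, XRCC2 and XRCC3, which act early in recombination, moved in a graded way. RAD51C stood at 13.0, 15.7 and 13.7 in Control and at 2.27, 2.31 and 1.52 in ATRA, a 6.91-fold fall (log2FC -2.79 ± 0.15 SE, adjusted p = 3.89e-12). XRCC2 stood at 7.25, 7.39 and 6.35 in Control and at 3.12, 3.08 and 3.87 in ATRA, a 2.08-fold fall (log2FC -1.06 ± 0.14 SE, adjusted p = 1.82e-06). Neither paralog had overlapping groups. RAD51B (-0.80) and RAD51D (-0.47) were lower with TMM, but RAD51D had a log2FC of 0.01 by library size alone and RAD51B kept its sign without passing there. XRCC3 was higher (log2FC 0.41, adjusted p = 0.0232), a call lost without Control 1, Control 3 or ATRA 2, with adjusted p up to 0.110.

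RAD52, which anneals complementary strands, was higher with ATRA. It stood at 24.7, 22.8 and 24.6 in Control and at 40.1, 39.5 and 42.0 in ATRA, and rose 1.69-fold with every ATRA library above Control (log2FC 0.76 ± 0.073 SE, adjusted p = 2.20e-08). It overlaps WNK1, whose log2FC was 0.69. RAD54B, the relative of RAD54L, had a log2FC of -0.33 and did not pass (adjusted p = 0.0901, edgeR).

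The BLM complex takes apart the joined DNA molecules that recombination leaves. BLM, its helicase, stood at 11.7, 9.24 and 12.4 in Control and at 0.555, 0.612 and 0.797 in ATRA, a 16.9-fold fall with no overlap (log2FC -4.08 ± 0.18 SE, adjusted p = 2.73e-13). RMI2, a small subunit, had 116, 121 and 123 counts in Control and 3, 0 and 0 in ATRA. Over the group this was a ratio of 162 (95% interval 54.9 to 788, counting error only), and its fitted log2FC (log2FC -7.15 ± 0.45 SE, adjusted p = 4.02e-11) depends on the prior count. A second model of RMI2, LOC108635621, had 4, 9 and 7 counts in Control and 0, 0 and 0 in ATRA, which is at least 8.98-fold lower against a floor of 3 counts over the group. It was not tested, and reads may have been shared with RMI2.

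The other subunits did not fall with BLM and RMI2. TOP3A, the topoisomerase of the complex, had a log2FC of -0.01 and overlapping groups. RMI1 was lower with TMM, with the groups apart (log2FC -0.29, adjusted p = 0.0033, edgeR), but its log2FC was 0.18 by library size alone. TOP3B, a related topoisomerase, stood at 19.5, 15.5 and 14.8 in Control and at 30.4, 26.0 and 26.2 in ATRA, and rose 1.66-fold with no overlap (log2FC 0.73 ± 0.10 SE, adjusted p = 2.81e-06).

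The mismatch repair gene PMS2 (-0.09) did not pass, and its groups overlapped. HES1, a Notch target annotated to the pathway, was lower with TMM (log2FC -0.22, adjusted p = 0.0356) although its groups overlapped. HES1 lost its call without Control 1, Control 3, ATRA 2 or ATRA 3 (adjusted p up to 0.136), and its log2FC by library size alone was 0.26.

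Ratios between partner genes in the same library do not depend on the scaling of libraries. They were computed for 22 pairs that were chosen after the values were seen, so they are a description with no test. In 17 pairs every ATRA ratio was below every Control ratio, in 1 it was above, and in 4 the groups overlapped. The direction of a ratio turns with which gene is put first, so these counts are no result about direction. Groups were also apart in 39.0% (lower) and 41.2% (higher) of single tested genes, and no share over other pairs was computed. The ratio of FANCD2 to USP1 counts was 0.724, 0.610 and 0.665 in Control and 0.0321, 0.0321 and 0.0245 in ATRA, a 22.7-fold difference. The ratio differed between BLM and TOP3A 16.9-fold, between RAD54L and RAD54B 11.3-fold, and between BRCA1 and FAM175A 8.65-fold.

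For some pairs of partner genes the ratio of RNA counts differed between the groups. The counts do not measure the proteins, so they do not give the make-up of a complex. BRCA2 to PALB2 went from a mean ratio of 1.19 ± 0.23 to 0.353 ± 0.045 (SD, n = 3 libraries per group). RAD51C to RAD51D went from 0.935 ± 0.11 to 0.188 ± 0.052, and SLX1A to SLX4 went up from 0.288 ± 0.022 to 0.682 ± 0.047. The pairs whose ratios overlapped between the groups were UBE2T with FANCL, FANCM with FAAP24, ERCC1 with ERCC4, and MRE11 with NBN. FANCD2 and FANCI both fell, but their ratio also changed, from 1.43 ± 0.031 to 0.711 ± 0.097.

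**Figure D4:**
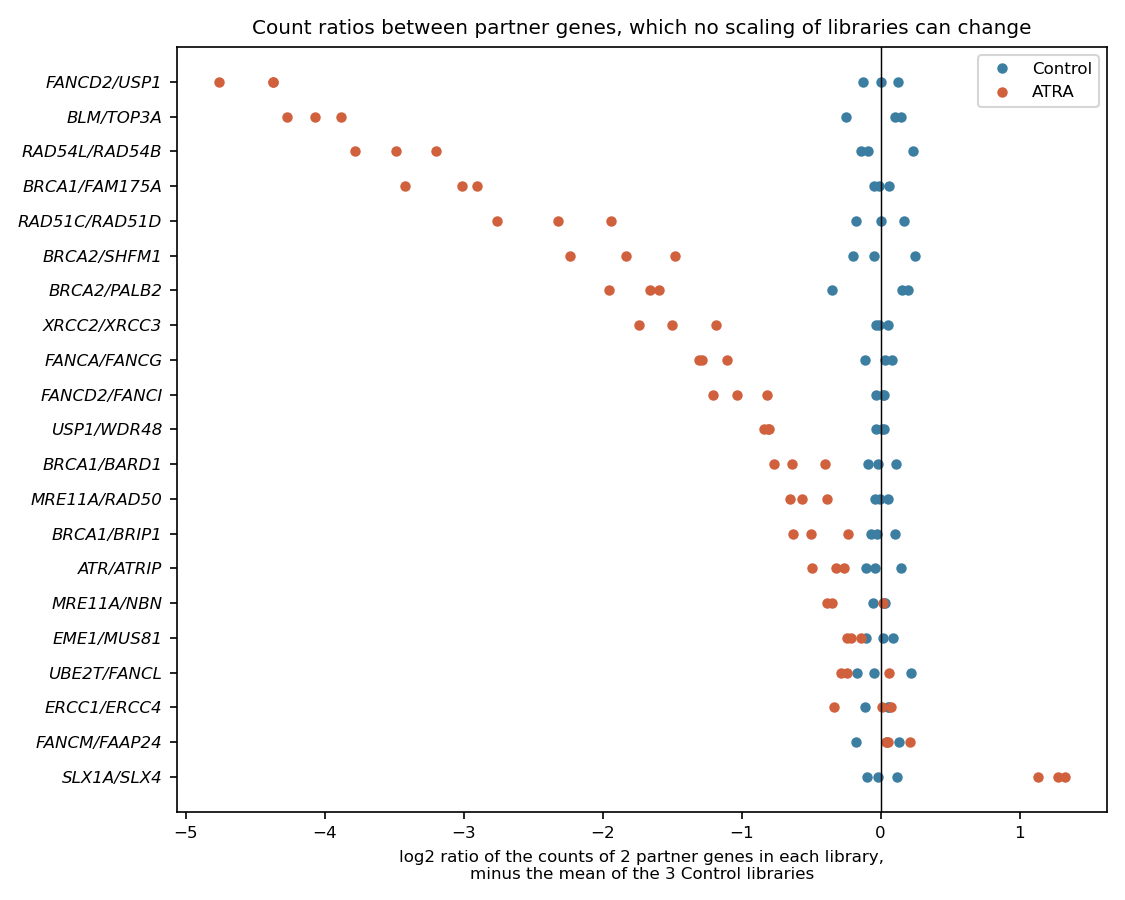
Log2 ratio of the counts of 2 partner genes in each library (x axis), set to the mean of the 3 Control libraries, for the 21 pairs with counts in every library. FANCD2/USP1 lies furthest left with ATRA, at a mean of -4.50, and SLX1A/SLX4 furthest right, at 1.25.

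The position of a gene in the annotation gave a further description. Of the 11 members annotated to both pathways, 6 (54.5%) were lower past the study thresholds (edgeR, unadjusted p) and none was higher. BLM, BRCA1, BRCA2, BRIP1 and RAD51C were among them. Of the 36 tested members annotated to the Fanconi anemia pathway only, 6 (16.7%) were lower and 3 (8.33%) higher. Of the 21 annotated to homologous recombination only, 6 (28.6%) were lower and none was higher. Over all tested genes, 17.3% were lower and 13.7% were higher by this rule, so the Fanconi anemia only group was near the share lower. Each count of members by annotation rests on few genes, and their difference was not tested.

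Other genes of the same pathways that the annotation did not hold, or held under DNA replication, were read from a separate list. Of 39 tested, 20 were lower (51.3%), 13 were higher (33.3%) and 6 did not pass with TMM. Over all tested genes, 38.7% were lower and 40.9% were higher by the same rule. By library size alone the split of the list was 12 lower and 20 higher. The largest differences were again lower with ATRA. RAD51AP1, a recombination factor, stood at 12.8, 13.2 and 15.0 in Control and at 0.0925, 0.0680 and 0.0242 in ATRA (log2FC -7.71 ± 0.24 SE, adjusted p = 1.10e-15). GEN1, a nuclease that cuts Holliday junctions, stood at 7.83, 7.64 and 7.0 in Control and at 0.139, 0.113 and 0.193 in ATRA (log2FC -5.63 ± 0.24 SE, adjusted p = 9.35e-14). Both genes had ATRA libraries far below Control. UHRF1 (-4.67), which binds crosslinked DNA, the helicase MCM8 (-4.20), the polymerase POLQ (-3.30), and the resection nucleases DNA2 (-3.13) and EXO1 (-3.04) were also lower.

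Some genes of this list were higher. POLD4, a small subunit of DNA polymerase delta, stood at 11.6, 9.83 and 7.84 in Control and at 44.6, 35.3 and 41.1 in ATRA, with no overlap (log2FC 2.05 ± 0.12 SE, adjusted p = 2.05e-11). MCM9 (1.15), which forms a helicase with MCM8, and SLF2 (1.06) were higher too. Thus the partners MCM8 and MCM9 had log2FC of opposite sign. The single-strand binding proteins RPA1 (-1.64), RPA2 (-0.51) and RPA3 (-0.60) were lower with TMM.

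Lists of other processes gave the setting for these values. All 20 of the proliferation genes were lower, with a median log2FC of -4.17, and their summed level was 1441 to 1463 normalized CPM in Control and 127 to 131 in ATRA. MKI67, a marker of cycling cells, stood at 177, 157 and 182 in Control and at 0.139, 0.0907 and 0.169 in ATRA. Of the 35 tested DNA replication genes, 29 were lower (82.9%) and 4 were higher (11.4%), with a median of -1.16. By library size alone, 23 were lower, 7 were higher and the median was -0.68. Of 11 tested genes of end joining, the repair route that needs no sister strand, 4 were lower (36.4%) and 5 were higher (45.5%). These shares are near the 38.7% and 40.9% of all tested genes and are no result about end joining. The end joining median was 0.24, with 0.72 by library size alone and 0.15 without Control 3. BRCA1, BLM, FANCD2 and FANCI were lower with ATRA, as the proliferation genes were, while 17 of the 68 tested members were higher with TMM. The part of the proliferation genes in the members' values was not tested.

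**Figure D5:**
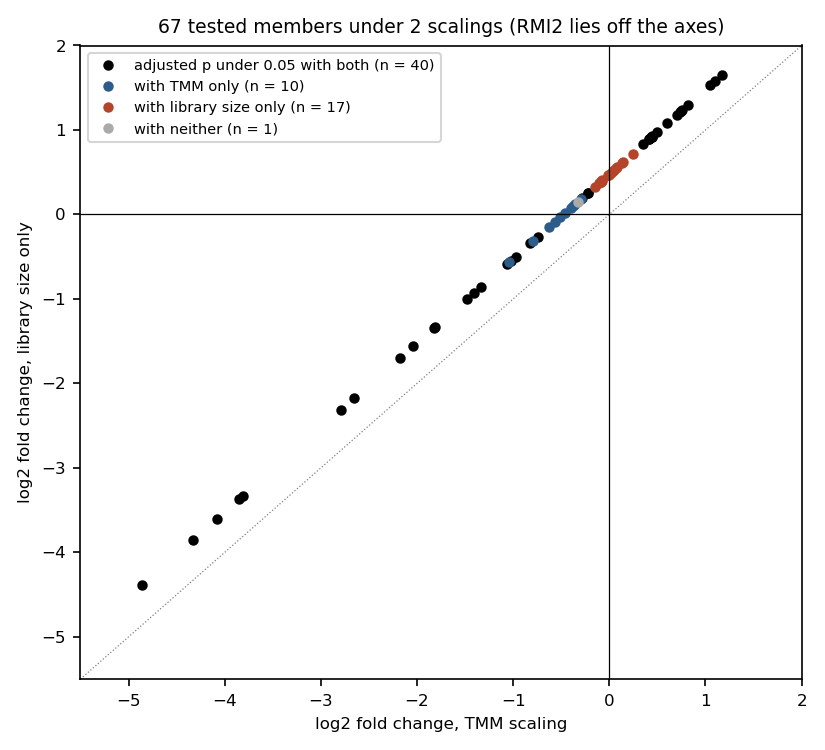
Log2 fold change by library size alone (y axis) against that with TMM scaling (x axis) for 67 tested members, with RMI2 outside the axes. All points lie above the dotted line of equality by a near-constant step, and colours show whether the adjusted p was under 0.05 with both scalings (40 members including RMI2, 3 of them in opposite directions), with TMM only (10), with library size only (17) or with neither (1).

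Library size alone changed which of the smaller differences passed. It shifts all members by nearly the same step, so their order could hardly change. Of the 18 members lower past the study thresholds with TMM, all 18 kept a negative log2FC by library size alone and 12 stayed beyond -1. The 3 higher ones, SLX1A, POLI and EME2, stayed beyond 1. In all, 49 of the 68 tested members had an adjusted p under 0.05 (edgeR, TMM) and groups that did not overlap. Among all tested genes, 38.7% were lower and 40.9% higher at that adjusted p, and groups were apart in 39.0% and 41.2%. The share of all genes passing both was not computed, so the count of 49 is no result about the members. RefSeq places 26 of the 71 members over another gene, and for those the reads of the overlapping gene could not be separated here.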

How the data were processed

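RNA-seq of SHF-DPCs was available for 3 Control and 3 ATRA libraries, all under batch 1. The authors enriched poly(A) mRNA, cleaned reads with fastp and TrimGalore 0.6.6, and deposited whole-number counts of reads per gene with pathway annotation. The submitters' processing notes name HISAT2, featureCounts and DESeq2. The genome build, annotation, strand setting and treatment of shared reads are not given in the sources used here. With 35532339 to 38012771 counts per library, intervals and floors cover counting error only.

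From the deposited counts, genes passing edgeR's expression filter (12588) were scaled by TMM and tested by the edgeR 4.0.16 quasi-likelihood test (robust, two-sided, R 4.3.3). No covariate entered the fit, which held all 6 libraries, and p-values were adjusted by Benjamini-Hochberg across the 12588 genes. The study's methods name R's t.test without saying whether it was paired, and it was run unpaired on log2(CPM + 1) as an alternative, since counts need a count model. Log2FC uses a prior count of 0.125, and its SE is the absolute log2FC over the square root of F. Normalized CPM divides by the tested genes' total times the TMM factor. A ratio interval is exact at 95%. The procedure was tested on simulated counts with 200 changed genes, far fewer than were called here. That simulation had no gap in scaling between the groups, so it did not test the scaling.

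The members and lists were chosen with earlier results of these data known. Values in every library are given for key members fixed by name, for up to 8 members lower and 8 higher with the largest log2FC (mean CPM of at least 1, adjusted p under 0.05, no overlap), and for untested members as counts. Results for some genes are not reported here. The partner pairs were chosen after values were seen. Gene names matched RefSeq (ARS1.2) for 71 of 71 members, and no coordinates or sequences are printed. Replicates within a group differed by more than sampling noise (chi-square per degree of freedom 5.17 to 19.2). Alternatives were DESeq2 1.42.0, other scalings and filters, another prior count, other thresholds, a replicate block, inclusion of the members with DNA replication, and leaving out each library.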

Additional observations from a re-analysis of the deposited data

How the results depend on the processing

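The counts of members kept within 1.5 times their value under RLE and upper quartile scaling, both filters on low counts, DESeq2, the t.test, a prior count of 2 and the inclusion of DNA replication members. By library size alone, 20 members passed an adjusted p of 0.05 as lower and 37 as higher, 9 were higher past the study thresholds, and the members' median log2FC was 0.29. With upper quartile scaling that median was -0.11. With an absolute log2FC above 2 in place of 1, 10 members were lower and 0 were higher. Leaving out each library in turn gave medians of -0.25 to -0.16, 31 to 34 lower and 16 to 17 higher members, and 18 to 21 lower and 3 higher past the study thresholds. With the t.test, FANCC, FANCF, HES1, LOC102178856 (CENPX) and RAD51D lost their calls (adjusted p 0.0502 to 0.119) and EME1 gained one. In sign, library size alone turned ATR (0.47), FAAP100 (0.33), FANCE (0.13), FANCG (0.39), HES1 (0.26), PALB2 (0.40), PMS2 (0.39), POLH (0.0804), RAD50 (0.26), RAD51D (0.0117), RAD54B (0.15), RBBP8 (0.37), REV1 (0.20), RMI1 (0.18), SLX4 (0.40), TELO2 (0.39), TOP3A (0.47) and USP1 (0.10), a shift that scaling applies to all genes alike. The other turns were in genes with no called difference. Upper quartile scaling gave ATR 0.0687, SLX4 0.0011 and TOP3A 0.0642, the CPM filter gave ATR 0.0049 and TOP3A 0.00063, and ATM was -0.0034 with RLE and -0.0035 with DESeq2. Over the libraries left out, log2FC ran from -0.0849 to 0.076 for ATM, -0.0462 to 0.0023 for ATR, -0.0575 to 0.15 for REV3L, -0.0477 to 0.13 for SHFM1 and -0.0776 to 0.0219 for TOP3A. The labels number the replicates but do not say that a number marks an animal, and same-numbered libraries did not deviate together (correlations 0.0892, 0.0299 and -0.0764). With the replicate block, 32 members were lower and 17 higher, 18 and 3 past the study thresholds, the median was -0.18, and only POLN lost its call (adjusted p = 0.0545, edgeR). Depth limits POLN, FANCB, LOC102189936 and LOC108635621 most, which had the fewest counts.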
